A study of Mus musculus with 3 samples.

Results

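Basal interfollicular keratinocytes, the bottom layer of the epidermis between hair follicles, were taken from single cell profiles of mouse back skin by a rule on 12 genes. A cell was a member when at least 4 of the 6 epithelial genes *Perp*, *Trp63*, *Sfn*, *Cdh1*, *Dsp* and *Krt5* were above 0, its deposited value for *Krt15* was at least 2.5, its value for *Krt10* was below 2, and *Lhx2*, *Shh*, *Pdgfra* and *Sox10* were all at 0. The deposited values are ln(1 + UMIs per 10000 of the cell), where a UMI (unique molecular identifier) stands for 1 captured mRNA molecule. The rule found 490 of the 5208 cells at E16.5, late in fetal life, and 372 of the 5065 cells at birth (P0), 862 of the 16235 cells in the series. Each stage was described apart.

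The epidermis is renewed from its basal layer, where keratinocytes make the keratins *Krt5* and *Krt14*, hold on to the basement membrane through hemidesmosomes, and divide. Daughter cells that leave the membrane enter the spinous layer and switch to *Krt1* and *Krt10*. Hair follicles grow out of the same sheet, as *Shh*-positive placodes first and as downgrowths of several epithelial layers later, so that follicle and interfollicular keratinocytes share most of their keratins. *Krt15* is a type I keratin of basal cells and, in adult skin, of the follicle bulge, and *Trp63* encodes p63, the transcription factor of stratified epithelia.

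The skin came from male C57BL/6 mice, with dorsal skin of several animals pooled into a single 10x 3′ library at E13.5, E16.5 and P0. E13.5 and E16.5 skin was dissociated with trypsin for 5 min and P0 skin with collagenase IV for 30 min. With 1 library a stage there was no test between stages, and stage, library and digestion cannot be told apart. The E16.5 and P0 libraries held 66239195 and 46599806 UMIs, and 32 cell barcodes occurred in both. Scrublet called 1.61% and 2.09% of their cells doublets, and these cells were kept.

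Members held a median of 13090 UMIs at E16.5 and 7739 UMIs at P0. They were set against the other cells of their stage with at least 4 of the 6 epithelial genes and *Pdgfra* at 0, in all 389 cells at E16.5 (median 13552 UMIs) and 1104 cells at P0 (median 10409 UMIs). These other epithelial cells were made up of cells with *Krt10* at 2 or more (57 and 127, the suprabasal side), cells with *Lhx2* or *Shh* above 0 (134 and 910, the follicle side) and the remaining 198 and 67 cells, which fell short on *Krt15* or held *Sox10*. At P0 the reference was thus mostly cells of the follicle side. Cells with *Pdgfra* above 0 and fewer than 4 of the 6 genes (2002 and 1201, dermal cells with medians of 11039.5 and 6361 UMIs) gave the background of free RNA.

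UMIs were summed over the cells of a group and written as CPM, the counts of a gene per 1000000 UMIs of the group. Differences are log2 ratios of CPM after 10 CPM was added to each side, for genes with at least 50 UMIs in the groups compared. Ranges in parentheses are 95% intervals of counting error only, since the cells of a group came from 1 library. A gene was past the fold when its difference was at least 1 in size, and the 12 genes of the rule were left out of every count.

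Of 1100 cells with 4 of the 6 genes at E16.5, 706 had the 4 excluding genes at 0, as 539 of 1601 had at P0. Of these, 653 and 424 were below the *Krt10* cutoff, and 490 and 372 also passed the *Krt15* cutoff. The lowest members stood at 2.511 and 2.534 and the nearest cells outside at 2.495 and 2.442. Within 0.25 of the cutoff there were 41 members and 35 outside cells at E16.5, and 15 and 11 at P0. Few cells lay near the *Krt10* cutoff, with 3 and 10 members in the 0.25 under it and 3 and 4 cells that met all else in the 0.25 above, of 28 and 91 in all above it. *Krt10* was above 0 in 348 of 490 members at E16.5 and 211 of 372 at P0, at 95.3 and 120 CPM, against 84.4 and 76.1 CPM in dermal cells and 9647 and 12272 CPM in the cells at 2 or more.

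**Figure D1:**
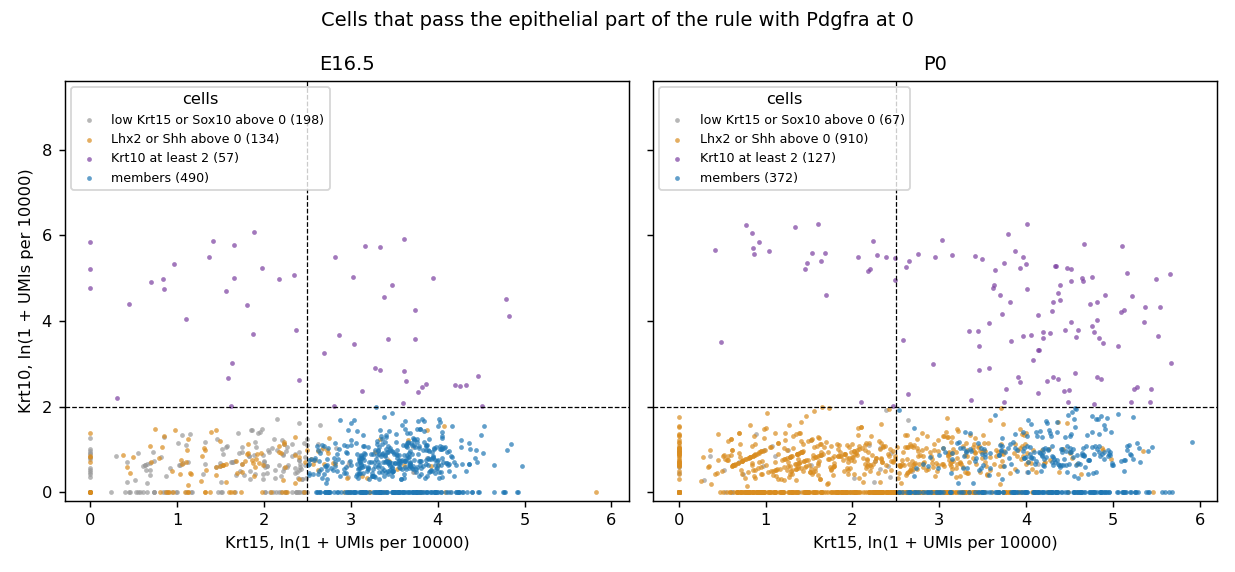
Each point is an epithelial cell with *Pdgfra* at 0, placed by its values for *Krt15* (x axis) and *Krt10* (y axis), both as ln(1 + UMIs per 10000), at E16.5 (left) and P0 (right). Dashed lines mark the cutoffs of 2.5 and 2. Members (blue, 490 and 372) lie to the right and below, where cells with *Lhx2* or *Shh* above 0 (orange, 134 and 910) are also found, and most cells with *Krt10* at 2 or more (purple) lie well above the line.

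The label was checked against the basal markers *Krt15*, *Krt14*, *Krt5* and *Trp63*. *Krt14*, the partner of *Krt5* in the basal filament network and no part of the rule, reached 5890 CPM in members at E16.5, where the other epithelial cells had 2610 CPM, so that the log2 difference was 1.17 (1.15 to 1.20). At P0 it stood at 10410 against 2605 CPM, a difference of 1.99 (1.97 to 2.01). Every member held *Krt14* UMIs, with values between 3.27 and 4.65 at E16.5 and between 3.50 and 5.27 at P0 for the middle 80% of cells. After each cell was thinned to 3500 UMIs, *Krt14* was found in 99.8% and 99.7% of members and in 38.2% and 39.3% of dermal cells, so that its presence in a cell said less than its level, which in dermal cells was 138 CPM at either stage. The genes that chose the members had, as a matter of course, high levels: *Krt15* 3528 and 7733 CPM, *Krt5* 3303 and 5455 CPM, and *Trp63* 302 and 234 CPM, against 5.81 and 3.94 CPM of *Trp63* in dermal cells. In the mouse genome (GRCm38, GENCODE gene models) *Krt15* and *Krt14* both lie in the type I keratin cluster, at chr11:100131758-100135928 and chr11:100203162-100207548. *Krt5* lies in the type II cluster at chr15:101707070-101712898 and *Trp63* at chr16:25683763-25892102.

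The interfollicular side of the label held at E16.5 and in part only at P0. When the members of each stage were clustered on their own, without the rule genes, 44 of 490 cells (8.98%) at E16.5 and 165 of 372 (44.4%) at P0 fell into clusters whose leading genes were those of follicles or of dermis. All 10 and 16 doublet calls among members lay in these clusters. The cells are therefore called Krt15-high keratinocytes from here on, and results that these clusters bear on are also given for the remaining 446 and 207 cells, the restricted set. Those clusters were picked after their genes were seen.

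Over all genes, Krt15-high keratinocytes at E16.5 had 27 of 10560 genes past the fold on the high side (0.256%) and 176 on the low side (1.67%). At P0 it was 106 of 10816 (0.980%) and 112 (1.04%). These genes come from the same contrast that chose the cells and are given as a description. Among the 10105 genes tested at both stages, 13 at E16.5 and 101 at P0 were past the fold on the high side, and 7 were so at both, 53.8% and 6.93% of these. On the low side there were 164 and 88, and 39 at both, 23.8% and 44.3%. The 7 genes were *Krt14*, *Col17a1*, *Wnt4* and *Satb1*, described with their groups, *Anxa8* (1.19 and 1.43), the kallikrein gene *Klk10* (1.41 and 1.38) and *Dlk2* (1.29 and 1.84), a relative of the Notch ligand genes, the last 2 named after their values were seen.

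Single cells made up most of the high side at E16.5. For 16 of the 27 genes (59.3%), at least 50% of the UMIs in members lay in 1 cell, found for each gene apart. For *Psca*, *Cnfn*, *Sprr1a*, *Krt6a*, *Krt7* and *Krt4* it was the same cell, which held 58958 UMIs and was not called a doublet. It carried 1128 of the 1142 UMIs of *Psca*, 1557 of 1602 of *Cnfn*, 944 of 957 of *Sprr1a* and 653 of 665 of *Krt6a*, genes of the periderm and of cornifying layers, beside 846 UMIs of *Krt15*, the highest *Krt15* value of any member at that stage, 8 of *Krt5*, 2 of *Krt14* and 0 of *Trp63*. At P0 4 of 106 genes were of this kind, *Ccer2* and the globin genes *Hbb-bt*, *Hba-a1* and *Hba-a2*. When for each gene the 5 cells with most of its UMIs were left out on either side, 13 of 9845 genes were past the fold on the high side at E16.5 (0.132%) and 111 on the low side (1.13%), and 82 of 10296 (0.796%) and 144 (1.40%) at P0.

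Of the genes that anchor basal cells, *Col17a1* was past the fold on the high side at both stages. It encodes the transmembrane collagen of hemidesmosomes (chr19:47646344-47692094) and stood at 252 against 116 CPM at E16.5 and 264 against 83.9 CPM at P0, differences of 1.06 (0.94 to 1.17) and 1.54 (1.43 to 1.65). In cells thinned to 3500 UMIs it was found in 57.6% (53.0 to 62.0) and 58.9% (53.7 to 63.9) of members, 28.3% and 20.4% of the other epithelial cells, and 2.30% and 0.999% of dermal cells. Unthinned, members stood at 92.4% and 84.9%. *Itgb4*, the integrin chain that pairs with *Itga6* in hemidesmosomes, stood at 87.8 against 46.3 CPM and 80.7 against 35.7 CPM. *Itga6* itself was nearly level at E16.5, 155 against 140 CPM (0.14), and past the fold at P0, 199 against 80.1 CPM (1.21). Of the 12 genes of the hemidesmosome list, which also holds *Dst*, *Plec*, *Cd151* and *Lamb3*, 1 was past the fold at E16.5 and 2 at P0, with medians of 0.36 and 0.69 where all genes had -0.07 and -0.06. *Itgb1*, carried by most cells of the skin, ran the other way at E16.5, at 115 against 134 CPM. The 18 genes of the basement membrane list gave medians of -0.17 and -0.15, with *Col4a1* (-1.16) and *Col4a2* (-1.23) past the fold on the low side at E16.5, when the other epithelial cells also held more mRNA of the 10 dermal markers, 4498 against 2817 CPM in sum. The part of dermal RNA in these values was not tested. Cell-to-cell contacts differed less, with medians of 0.07 and 0.28 for the 10 desmosome genes tested and of -0.12 and -0.14 for the 13 genes of other junctions.

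Against the suprabasal side alone, the anchoring genes differed more. At E16.5 10 of 12 hemidesmosome genes were past the fold and at P0 5 of 12, all higher in Krt15-high keratinocytes, with medians of 1.14 and 0.96 (all genes 0.02 and 0.10). *Lamb3*, a chain of laminin-332, differed by 1.80 and 1.45 and *Itga3* by 1.71 and 1.04. Among 9067 and 7846 genes, 172 (1.90%) and 217 (2.77%) were past the fold on the high side in this contrast and 274 (3.02%) and 192 (2.45%) on the low side. The basal cytokine gene *Cxcl14* was higher by 2.11 and 1.26 and *Pdgfa*, a ligand to dermal fibroblasts, by 1.77 and 1.16.

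Genes of the spinous layer were lower than on the suprabasal side. *Krt1* stood at 78.8 CPM in Krt15-high keratinocytes, 9467 CPM in cells with *Krt10* at 2 or more and 49.3 CPM in dermal cells at E16.5, and at 156, 11358 and 38.6 CPM at P0. Of the spinous list 12 of 13 genes were past the fold on the low side against those cells at E16.5 and 14 of 14 at P0, with medians of -3.40 and -2.46. The list shares the contrast with *Krt10*, which chose the cells. Against all other epithelial cells 7 of 14 and 5 of 15 were past the fold on the low side and 0 on the high side, with medians of -1.05 and -0.35. Against the follicle side 2 of 13 genes were past it on the high side and 1 on the low side at E16.5 (4147 against 1752 CPM in sum, median 0.36), and 6 and 2 of 13 at P0 (5028 against 1572 CPM, median 0.92). *Krtdap*, a secreted protein tied to keratinocyte differentiation, was an exception in level: it stood at 1455 and 1462 CPM in Krt15-high keratinocytes, below the 6035 and 5669 CPM of the suprabasal side and above the 405 and 357 CPM of the follicle side and the 57.4 and 31.4 CPM of dermal cells. It was found in 95.7% and 86.0% of thinned members and in 17.3% and 8.41% of thinned dermal cells. Of the epidermal transcription factor genes, 8 of 31 were past the fold on the low side and 1 on the high side against the suprabasal side at E16.5 (median -0.38), and 7 and 0 of 29 at P0 (median -0.15). All genes gave 3.02% and 1.90% at E16.5 and 2.45% and 2.77% at P0. Among the lower ones were *Zfp750* at -3.01 and -2.51, *Grhl1* at -2.60 and -1.93 and *Ovol1* at -1.69 and -1.70. *Notch3*, a receptor of the spinous layer, was lower by 2.41 at E16.5 and by 1.30 at P0.

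Of the Wnt list, ligands were the members that stood high. *Wnt4* (chr4:137277489-137299726) reached 253 against 118 CPM at E16.5, a difference of 1.03 (0.92 to 1.15), and 169 against 43.4 CPM at P0, a difference of 1.75 (1.61 to 1.88). *Wnt10a* stood at 92.8 against 45.9 CPM and 129 against 33.1 CPM, differences of 0.88 and 1.69. *Wnt16* differed by 0.94 and 1.40, *Wnt3a* by 0.91 and 1.38, *Wnt7b* by 0.72 and 1.24 and *Wnt3* by 0.24 and 1.11. *Wnt6*, at 335 CPM the most abundant of them at E16.5 on this scale of 3′ counts, differed by 0.82 and 0.32. Past the fold on the high side were 1 of 29 genes at E16.5 (*Wnt4*) and 6 of 31 at P0, beside 0.256% and 0.980% of all genes. On the low side were the receptor gene *Fzd1* (-1.52) and the Wnt deacylase gene *Notum* (-1.11) at P0, beside 1.04% of all genes. The medians of the list, -0.18 and 0.10, were close to those of all genes. *Axin2*, a target of Wnt signalling, was at 37.8 against 49.1 CPM and 25.6 against 22.9 CPM.

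The 2 sides of the reference differed in these genes. Against the follicle side alone, 58 of 9563 genes (0.607%) were past the fold on the high side and 166 (1.74%) on the low side at E16.5, and 200 of 10484 (1.91%) and 140 (1.34%) at P0. *Wnt4* in Krt15-high keratinocytes at P0 was far from the follicle side, at 29.1 CPM, and near the suprabasal side, at 148 CPM. *Wnt7b* was likewise near the suprabasal side, at 126 against 144 CPM. *Wnt6* stood apart from the suprabasal side at both stages (83.7 and 62.1 CPM, differences of 1.88 and 1.33) and close to the follicle side at P0 (147 CPM, a difference of 0.20).

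At P0 *Igfbp2* and *H19* stood far higher in Krt15-high keratinocytes than in the other epithelial cells, most of them of the follicle side. Of the list of FGF and IGF genes 0 of 12 were past the fold on the high side and 1 on the low side at E16.5 (median -0.21), and 2 and 2 of 13 at P0 (median 0.19). *Igfbp2*, a binding protein of insulin-like growth factors (chr1:72824503-72852474), stood at 336 against 31.6 CPM at P0, the largest difference on the high side at that stage (3.06, 2.93 to 3.18), and at 279 against 140 CPM at E16.5 (0.94). *H19*, an imprinted non-coding RNA of the *Igf2* locus (chr7:142575529-142578143), stood at 1464 against 237 CPM at P0 (2.58) and 1310 against 900 CPM at E16.5 (0.54). At P0 *H19* was at 75.6 CPM on the follicle side, 1283 CPM on the suprabasal side and 641 CPM in dermal cells. *Igf2* itself was low at P0, 28.6 against 11.4 CPM. *Slc1a3*, a glutamate transporter, stood at 95 against 15.9 CPM at P0 (2.02) and 79.0 against 64.6 CPM at E16.5 (0.25). The serpin gene *Serpinb10* gave 137 against 12.8 CPM (2.69) at P0 and 132 against 63.5 CPM (0.95) at E16.5. The P0 reference values are mostly those of the follicle side, where *Igfbp2* stood at 18.7 CPM and *Serpinb10* at 6.21 CPM. The remaining epithelial cells, those short on *Krt15* or with *Sox10*, had 66.0 and 15.6 CPM. Per thinned cell, *Igfbp2* was found in 48.4% of members, 6.43% of the other epithelial cells and 5.50% of dermal cells at P0. For *H19* the shares were 64.5%, 22.4% and 63.9%, so that its presence did not set members apart from dermis.

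Among 39 epidermal transcription factor genes, 34 at E16.5 and 35 at P0 were tested. *Satb1*, a chromatin organizer under p63, was past the fold at both stages, at 212 against 96.5 CPM (1.06) and 117 against 46.1 CPM (1.18). *Klf3*, *Klf4* and *Klf5* were past it at P0 (1.18, 1.22 and 1.15) and stood at 0.58, 0.59 and 0.71 at E16.5. On the low side were *Zfp750* at E16.5 (-1.06) and *Id3* at P0 (-1.03). *Klf4* was higher still on the suprabasal side, 526 CPM against 314 CPM in Krt15-high keratinocytes at P0. The Notch ligand gene *Dll1* was at 28.8 against 11.5 CPM and 27.3 against 7.46 CPM (0.85 and 1.10), with 13 and 12 genes of the Notch list tested and no other past the fold.

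**Figure D2:**
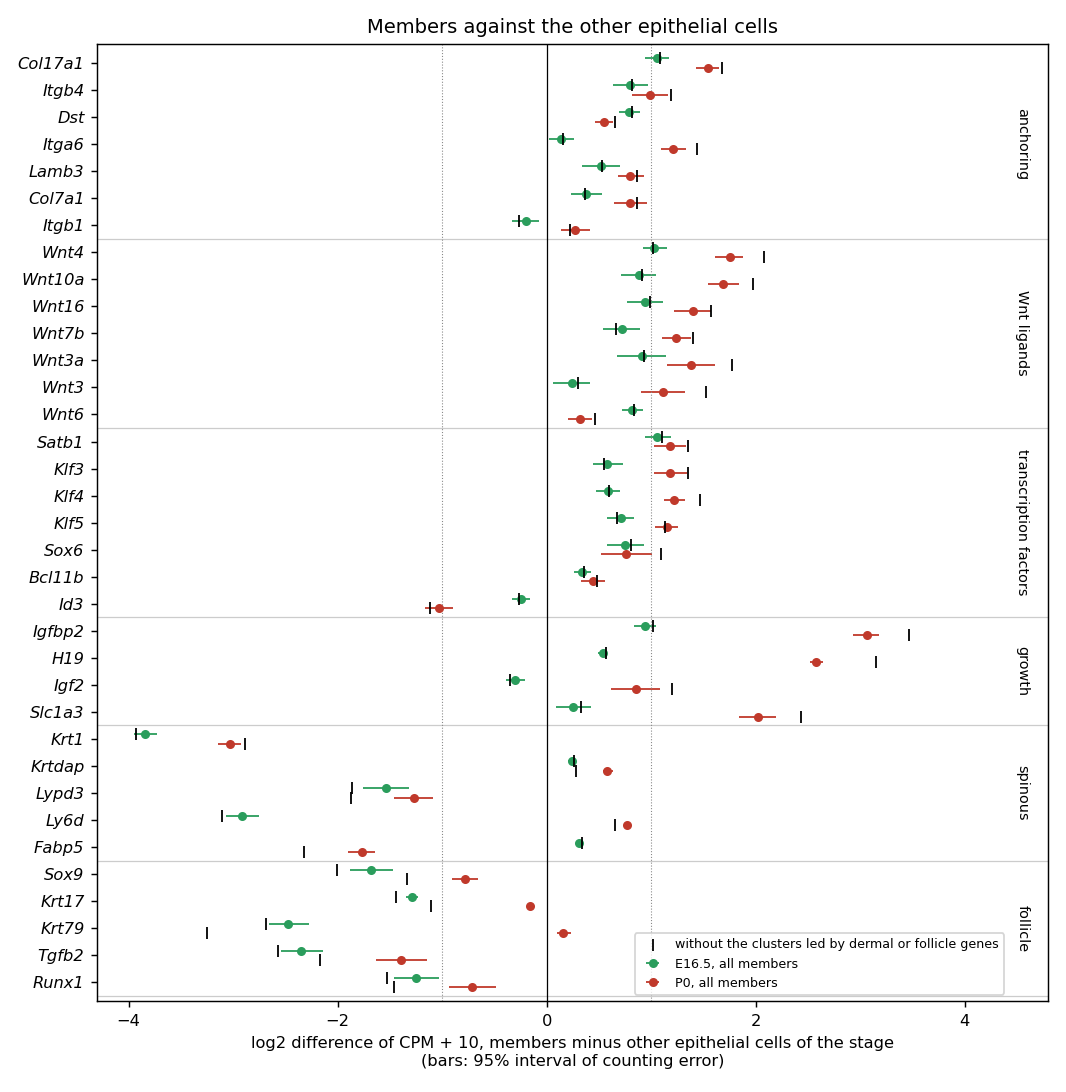
Log2 differences of CPM + 10 between Krt15-high keratinocytes and the other epithelial cells of their stage (x axis) for selected genes (y axis, by group). Green and red points with bars are E16.5 and P0 with the 95% interval of counting error, black ticks are the restricted set, and dotted lines mark a difference of 1. The Wnt ligand points lie right of 0 at both stages, and *Krt79* at P0 moves from 0.16 to -3.25 in the restricted set.

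Follicle genes were low at E16.5, with exceptions. *Dkk4*, a placode gene, stood at 0.837 against 80.3 CPM (-3.06), *Sox9* at 14.9 against 69.8 CPM (-1.68) and *Krt17* at 417 against 1035 CPM (-1.29). Of 27 genes of the list tested, 11 were past the fold on the low side and 1 on the high side, *Krt6a*, which came from the single cell described above. The median was -0.60. Of all genes 1.67% were past it on the low side and 0.256% on the high side, with a median of -0.07. *Tgfb2* differed by -2.35 and the semaphorin receptor gene *Nrp2* by -2.51. *Sostdc1*, an inhibitor of BMP and Wnt signalling, was at 388 against 265 CPM, and *Lef1* at 218 against 162 CPM. *Lhx2* and *Shh* were in the rule, so that the low levels describe the choice of cells in part.

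At P0 the follicle list was split. *Tbx1* (-2.29), *Hoxc13* (-2.08) and *Msx2* (-1.63), genes of the growing follicle, were past the fold on the low side among 9 of 31 genes, with a median of -0.65. Of all genes 1.04% were past it on that side, with a median of -0.06. *Krt17*, at 2441 against 2722 CPM (-0.16), and *Krt79*, a keratin of the upper follicle, at 606 against 540 CPM (0.16), were not. The restricted set leaves out clusters picked for follicle or dermal genes, so that lower follicle values in it follow from its construction. In it these became 1254 CPM (-1.11) and a difference of -3.25, *Sox9* went from -0.78 to -1.34, *Sostdc1* from -0.10 to -1.26, and 16 of 31 genes were past the fold on the low side with a median of -1.07. *Krt14* went the other way, from 10410 to 12148 CPM, *Igfbp2* from 336 to 450 CPM and *H19* from 1464 to 2181 CPM. At E16.5 the restricted set had 13 of 10408 genes (0.125%) past the fold on the high side and 274 (2.63%) on the low side. At P0 155 of 10633 (1.46%) were past it on the high side and 245 (2.30%) on the low side.

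The clusters at E16.5 were mostly those of the cell cycle. Clusters 2, 3 and 4 (125, 105 and 66 cells) were led by genes of DNA replication (*Ung*, *Mcm6*), mitosis (*Ube2c*, *Cenpf*) and histone synthesis (*Hist1h2ae*, *Tk1*), and cluster 1 (129 cells) had *Top2a* at 24.0 CPM against 322 CPM in the other members. Cluster 6 (21 cells) was led by *Hist1h2bc* and *Cenpa*. The leading genes *Pthlh*, *Vim* and *Hist1h2bc* were named after their values were seen. In the cluster values, for each gene the 2 cells with most of its UMIs were left out on either side. *Krt14* ran from 5081 to 6904 CPM in these 5 clusters. Cluster 5 (24 cells), which held the single cell above, was led by *Pthlh*, a peptide hormone gene, *Sox9* and *Krt17* (127, 82.5 and 1284 CPM, against 3.21, 8.61 and 331 CPM in the other members), and in it *Igfbp2* (41.2 against 283 CPM), *Slc1a3* (3.17 against 78.2 CPM) and *Serpinb10* (6.34 against 134 CPM) were low. Cluster 7 (20 cells) was led by *Ebf1*, *Meg3* and *Vim*, held 10 doublet calls and had 7024 CPM of the 10 dermal markers in sum, where the other 6 clusters had 1370 to 2401 CPM.

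At P0 the clusters differed in keratinocyte genes as well. Cluster 1 (84 cells) was led by mitotic genes such as *Ube2c* and *Nusap1*. Cluster 2 (63 cells), of which 71.4% were called G1, had the highest keratins, *Krt14* at 15348 CPM and *Krt15* at 10752 CPM, together with *H19* at 2887 CPM, *Igfbp2* at 559 CPM, *Tgfbi* at 360 CPM and *Wnt4* at 237 CPM, and low *Krt17*, 584 against 2544 CPM. Cluster 3 (60 cells) was led by *Bmp2* (131 against 48.3 CPM) and held *Lef1* at 155 against 64.5 CPM. These 3 clusters make up the restricted set. Cluster 3 was kept although *Bmp2* is in the follicle list and *Postn*, another of its leading genes, is a dermal marker. In sum its follicle list stood at 2873 CPM and its dermal markers at 1561 CPM, differences of -0.83 and -0.33 from the other members.

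Clusters 4 to 6 at P0 carried follicle genes. Cluster 4 (57 cells) had *Krt17* at 3877 against 2005 CPM and *Sox9* at 152 against 112 CPM. Cluster 5 (46 cells) had *Krt79* at 2507 against 89.5 CPM, *Krt17* at 4517 CPM and *Lypd3* at 137 against 22.2 CPM. Cluster 6 (43 cells) had *Apoe* at 7325 CPM, *Sostdc1* at 1200 CPM, *Pthlh* at 314 CPM, *Sox9* at 214 CPM and *Nfatc1*, a factor of follicle stem cells, at 76.7 against 6.74 CPM. *H19* was at 482, 155 and 69.7 CPM in clusters 4, 5 and 6, and *Igfbp2* at 249, 46.3 and 18.6 CPM. *Krt14* was at 9992 and 8258 CPM in clusters 4 and 5 and at 2827 CPM in cluster 6. Cluster 7 (19 cells) was led by *Col1a1* (2394 against 178 CPM) and held 14 of the 16 doublet calls. *Slc1a3* was at 5.35 against 101 CPM in cluster 5 and 4.65 against 98.6 CPM in cluster 6, and *Serpinb10* at 14.3 against 147 CPM and 0 against 146 CPM.

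**Figure D3:**
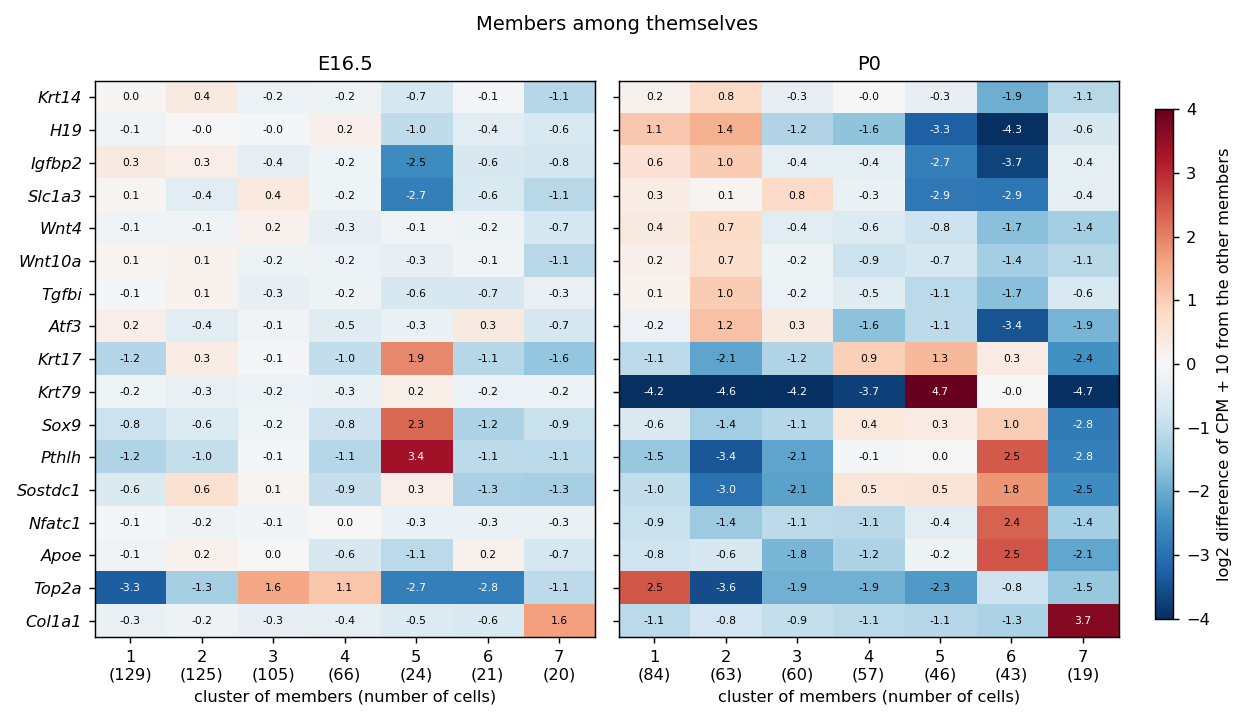
Log2 differences of CPM + 10 between each cluster of Krt15-high keratinocytes and the other members of its stage (colour and printed value), for 17 genes (rows) and 7 clusters (columns, with the number of cells) at E16.5 (left) and P0 (right). At P0 *H19*, *Igfbp2* and *Slc1a3* are lowest in clusters 5 and 6, where *Krt79* (cluster 5) and *Nfatc1* and *Apoe* (cluster 6) are highest.

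Members with *Krt10* above 0 were also set against those at 0. At P0 18 of 6732 genes (0.267%) were past the fold on the high side and 8 (0.119%) on the low side. The highest were *Ccer2* and 4 globin genes (3.82 to 5.03), and the lowest were *Cd74*, an antigen presentation gene (-3.11), the melanocyte genes *Pmel* (-2.45) and *Dct* (-2.38), and *Fabp4*, an adipocyte gene (-2.10). *Krt1* was higher by 1.75, *Krt79* by 1.83 and *Klk7* by 1.88. Of the spinous list 2 of 11 genes were past the fold, with a median of 0.61 and 5536 against 3944 CPM in sum. *Krt10*, which made the split, is itself a gene of the spinous layer, so that the list shares its contrast. At E16.5 it was 44 of 8745 (0.503%) and 0 (0.00%), with no test behind either count, and *Psca*, *Cnfn* and *Sprr1a*, at the head of the 44, came from the single cell. *Krt14* differed by -0.08 and -0.18 and *Krtdap* by -0.09 and 0.15. Median depth was 13661 against 12307.5 UMIs at E16.5 and 10161 against 6713 UMIs at P0.

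Between stages, 294 of 9765 genes were past the fold on the high side at P0 (3.01%) and 290 on the low side (2.97%), and in the restricted set 269 (2.97%) and 306 (3.37%) of 9071. Without the 5 cells with most UMIs of each gene it was 255 (2.79%) and 338 (3.70%) of 9143. Scaling by the median ratio of genes in place of all UMIs moved the differences by 0.13, and values here are on the scale of all UMIs. The largest gain was in *Ly6d*, which encodes a GPI-anchored surface protein, from 27.1 to 2282 CPM (5.95, 5.80 to 6.10), and the restricted set gave 22.3 and 2092 CPM. In thinned cells it went from 6.53% (4.51 to 9.09) to 84.9% (80.9 to 88.4) of members, and from 3.30% to 14.8% of dermal cells. On the suprabasal side *Ly6d* went from 1868 to 7319 CPM. *Tgfbi*, an extracellular matrix protein, went from 6.14 to 212 CPM (3.78), *Lgals3*, encoding galectin-3, from 32.2 to 484 CPM (3.55), *Tppp3* from 3.63 to 387 CPM (4.86) and *Anxa8* from 116 to 349 CPM (1.51). The skin chemokine gene *Ccl27a* went from 26.2 to 332 CPM (3.24).

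Other gains were smaller in the restricted set, which leaves out the follicle clusters. *Krt79* went from 3.49 to 606 CPM (5.51, and 2.30 in the restricted set) and *Krt17* from 417 to 2441 CPM (2.52, and 1.72). *Apoe*, the carrier of lipids, went from 155 to 2277 CPM (3.79, and 2.92). *Sox9* went from 14.9 to 131 CPM (2.49, and 2.27). *Sostdc1*, within the fold either way, was at 0.36 with all members and -0.81 in the restricted set.

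Apart from *Cnfn* (-4.44), which the single cell set at E16.5, the largest loss was in *Fabp5*, a carrier of fatty acids, from 2271 to 112 CPM (-4.23, -4.36 to -4.10). The other epithelial cells stood at 1830 and 405 CPM, the suprabasal side at 6356 and 1303 CPM and dermal cells at 568 and 286 CPM, so that Krt15-high keratinocytes were below dermal cells at P0. *Igf2* went from 248 to 28.6 CPM (-2.74) and *Igfbp5* from 95.9 to 8.77 CPM (-2.50), while *H19* and *Igfbp2* stayed within the fold (0.16 and 0.26). In dermal cells *Igf2* stood at 1082 and 69.6 CPM. The cell cycle inhibitor gene *Cdkn1c*, imprinted as *Igf2* and *H19* are, went from 309 to 67.9 CPM (-2.03), and *Cdkn1a*, the inhibitor under p53, from 26.0 to 195 CPM (2.51). *Odc1*, the rate-limiting enzyme of polyamine synthesis, went from 213 to 21.6 CPM (-2.82).

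Of 32 epidermal transcription factor genes tested between stages, *Cebpa* (1.37), *Foxo1* (1.30) and *Stat3* (1.15) were past the fold on the high side and *Sox6* (-1.68), *Id3* (-1.26) and *Bcl11b* (-1.08) on the low side, with a median of -0.04 where all genes had -0.09. *Cebpa* and *Stat3* were at 0.65 and 0.96 in the restricted set. *Lef1*, the nuclear partner of beta-catenin, went from 218 to 86.2 CPM (-1.25, and -0.97). Of the hemidesmosome genes 2 of 12 were past the fold on the high side, among them *Lamb3* (1.21), while *Col17a1* was level (0.06), as was *Itgb4* (-0.11), and of the basement membrane list 1 of 16 was past it on the low side, *Fras1* (-1.19, and -0.94 in the restricted set). The secreted factor genes *Mdk* and *Kitl*, the latter a ligand for melanocytes, were lower by 1.62 and 1.25 on the log2 scale.

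**Figure D4:**
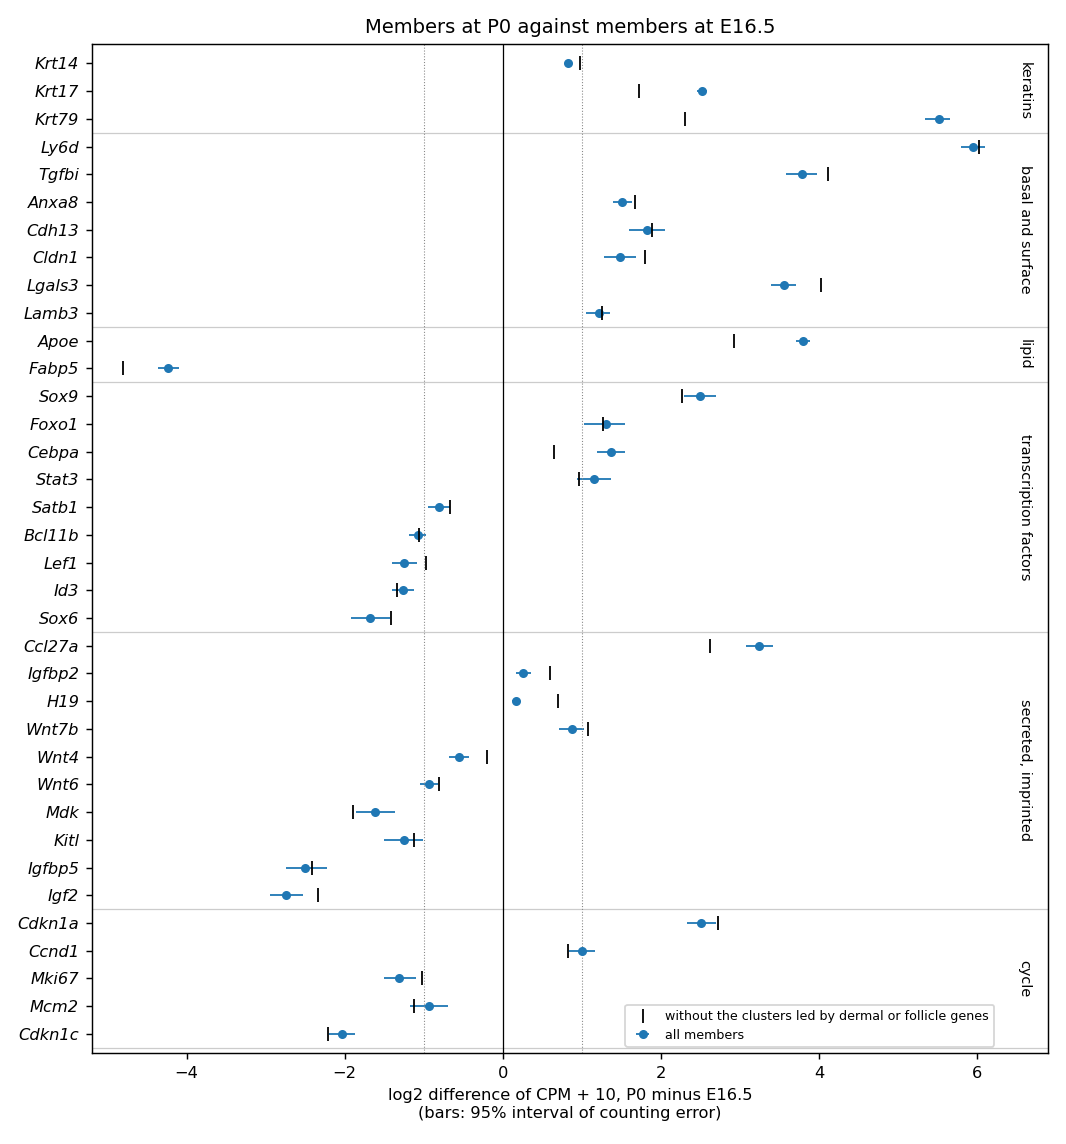
Log2 differences of CPM + 10 between Krt15-high keratinocytes at P0 and at E16.5 (x axis) for selected genes (y axis, by group). Blue points with bars are all members with the 95% interval of counting error, black ticks are the restricted set. *Ly6d* lies farthest right at 5.95 and *Fabp5* farthest left at -4.23, and the tick of *Krt79* (2.30) lies well left of its point.

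More members were called G1 at P0 than at E16.5. The scores were computed within each library, so that the calls at E16.5 and P0 are not on a common scale. On cells thinned to 3500 UMIs, scores over 42 S and 51 G2/M genes called 15.5% (12.4 to 19) of members G1, 49.2% S and 35.3% G2/M at E16.5, and 46.2% (41.1 to 51.5), 27.2% and 26.6% at P0. The unthinned G1 shares were 15.3% and 50.5%. In the restricted set G1 stood at 13.7% and 43.0%, while S at P0 went to 17.9% and G2/M to 39.1%. This set keeps cluster 1 of P0, where 90.5% of cells were called G2/M. It leaves out clusters 4 and 6, where 49.1% and 48.8% were called S. Its S and G2/M values at P0 thus depend on which clusters were left out. Some 16.7% and 29.3% of members lay within 0.05 of the G1 cutoff. The part of free RNA in these scores was not tested. Dermal cells gave 36.3% and 66.9% G1. In the other groups G1 was 20.1% and 17.8% on the follicle side and 40.4% and 80.3% on the suprabasal side, so that members were close to the follicle side at E16.5 and above it at P0.

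Part of the genes behind the scores were lower at P0. *Mki67*, a protein of dividing cells, went from 112 to 39.3 CPM (-1.31) and *Top2a*, the topoisomerase of chromosome segregation, from 264 to 119 CPM (-1.09). Of the S genes 14 of 42 were past the fold on the low side at P0 (median -0.77) and of the G2/M genes 3 of 51 (median -0.24), beside 2.97% of all genes. In the restricted set the G2/M genes went from 5965 to 6223 CPM in sum. Within E16.5 no S or G2/M gene differed past the fold between members and the other epithelial cells, with medians of -0.00 and -0.03. At P0 none did either, with medians of -0.49 and -0.26 where all genes had -0.06. The intervals of 38 of 42 S and 37 of 51 G2/M genes lay below 0, as did those of 2749 of all 10816 genes. The G2/M genes summed to 4713 CPM in all members, 5986 CPM in the other epithelial cells and 6223 CPM in the restricted set. For the S genes the sums were 1353, 2175 and 1300 CPM. The G2/M sum of the restricted set includes cluster 1, which stood at 10435 CPM, and so depends on which clusters were kept.

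**Figure D5:**
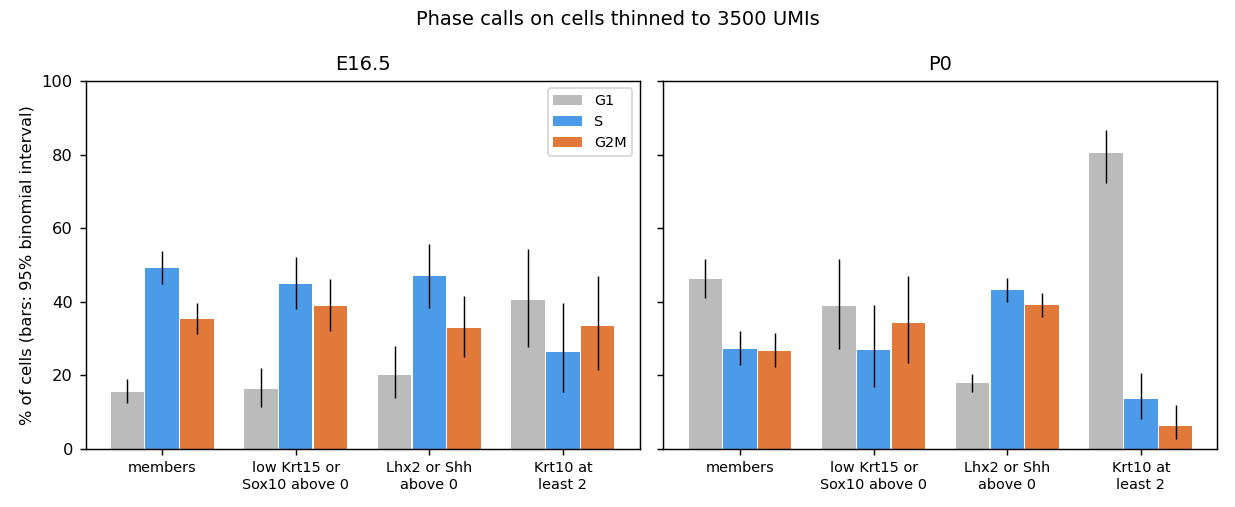
Share of cells called G1, S and G2/M (y axis, %, with 95% binomial intervals) on cells thinned to 3500 UMIs, for Krt15-high keratinocytes and the 3 other groups of epithelial cells (x axis) at E16.5 (left) and P0 (right). Scores were computed within each library. Members are at 15.5% and 46.2% G1, and cells with *Krt10* at 2 or more are highest in G1 at both stages, at 40.4% and 80.3%.

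Immediate early genes were high at P0. Of 16 genes known to respond to tissue dissociation, 13 were past the fold on the high side in Krt15-high keratinocytes at P0 against E16.5 (median 2.02), beside 3.01% of all genes. Among them were *Atf3* (14.8 to 540 CPM, 4.47), *Jun* (238 to 1224 CPM, 2.31) and *Fos* (594 to 2132 CPM, 1.83). *Fos* went from 541 to 1094 CPM in dermal cells. Within P0 6 of 16 were past the fold against the other epithelial cells (median 0.81), beside 0.980% of all genes (median -0.06). In sum the 16 genes stood at 8329 CPM in members and higher, at 9957 CPM, on the suprabasal side. The follicle side had 3484 CPM, the remaining epithelial cells 4836 CPM and dermal cells 6949 CPM. *Atf3* stood at 540 against 110 CPM, with 932 CPM in cluster 2 and 41.9 CPM in cluster 6. Within E16.5 none of the 16 was past the fold. The digestions differed between the stages, and their part in the stage differences was not tested.

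Markers of other cells were low in most clusters. Against 7712 and 10806 CPM in dermal cells, *Col1a1* was at 576 and 375 CPM in members, and at 951 and 422 CPM in the other epithelial cells. At P0 the 10 dermal markers in sum were nearly level, at 2188 CPM in members and 2309 CPM in the other epithelial cells, against 41726 CPM in dermal cells. Of the 10, 1 was past the fold on the high side (1.42) and 0 on the low side, with a median of -0.08. Of all genes 0.980% and 1.04% were past it. The 8 markers of melanocytes and Schwann cells summed to 15.4 and 72.7 CPM, where the reference had 117.5 and 397 CPM, with *Sox10* set to 0 by the rule. The 9 immune markers summed to 90.9 and 64.9 CPM and the 6 endothelial markers to 61.7 and 69.2 CPM. Globin transcripts were high in few cells, and at P0 91.5% of the *Hbb-bs* UMIs lay in 5 members. The part of RNA from other cells in these results was not tested beyond the restricted set and the values without the top 5 cells.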

How the data were processed

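The deposited values were natural log values, which the authors made with Cell Ranger and Seurat: ln(1 + UMIs of a gene per 10000 UMIs of the cell). Cell Ranger 2.2.0 and mm10 are as in the submitters' processing notes. One table held 19165 genes and 16235 cells of 3 libraries. Whole UMIs were recovered from the steps of each cell (tolerance 0.001).

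UMIs were summed per group, and log2 ratios of CPM + 10 were taken for genes with at least 50 UMIs. Intervals (95%) were exact Poisson for sums and exact binomial (Clopper-Pearson) for shares, and cover counting error only. The comparison was tried on simulated Poisson counts, the same error model that its intervals assume. That trial could not show how the intervals hold where few cells carry the UMIs of a gene. With 1 library a stage no test was possible. For shares and phases cells were thinned to 3500 UMIs. Doublets were called with Scrublet (expected rate 0.06) and kept. At E13.5 it called 0 of 5962 cells and had not worked. Members were clustered per stage on 2000 variable genes, 20 components and 15 neighbours (Leiden, resolution 0.7), without rule genes. Python 3.11.15, SciPy 1.17.1 and Scanpy 1.11.5 were used.

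Genes named are those of 30 gene lists and the 10 highest and 10 lowest of each comparison, and others are said to be named after their values were seen. The members and lists were chosen with earlier results of these data known. Alternatives covered the added CPM, UMI minimum, scaling, thinning, doublets, depth and each cutoff of the rule. Some genes are not reported here. Positions are from GENCODE (GRCm38).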

Additional observations from a re-analysis of the deposited data

Results flagged for a closer look

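The 2 genes past the fold in opposite directions at the 2 stages were *Ccer2* and *Hbb-bt*, and this difference was not tested. *Ccer2* differed between Krt15-high keratinocytes and the other epithelial cells by -1.47 at E16.5 and 2.91 at P0, where 1 member held 1091 of its 1107 UMIs. *Hbb-bt*, a globin gene, differed by -1.11 and 2.49, and at P0 1 member held 1610 of its 2620 UMIs.

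In the E13.5 library, which enters no comparison, 6 of 5962 cells met the rule, 0.101% (0.0369 to 0.219), where a count of 0 would allow up to 0.0503%. They held *Krt15* at 1664 CPM, *Krt5* at 1224 CPM, *Krt14* at 921.6 CPM, *Krt8* at 179 CPM and *Col1a1* at 289 CPM.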

How the results depend on the processing

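No paired analysis was possible because each stage had 1 library. The counts past the fold turned on the CPM added: with 1 or 50 added in place of 10, the 27 higher and 176 lower genes at E16.5 became 87 and 660 or 4 and 20, the 106 and 112 at P0 became 252 and 482 or 32 and 14, and the 294 and 290 between stages became 595 and 960 or 73 and 47. With *Krt10* at 0, 142 and 161 cells were members, with 0 higher and 108 lower genes at E16.5 and 49 higher genes at P0. Without the condition on *Lhx2*, *Shh* and *Sox10*, P0 had 696 members, 42 higher and 50 lower genes. With at least 2500 genes a cell, P0 had 171 members. At E16.5, 13 genes were higher by the mean over cells, 117 lower in thinned cells and 103 lower with at least 5 of 6 genes. A minimum of 200 UMIs left 193 genes higher at P0 than at E16.5.

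The following alternatives were chosen after the data were seen. Leaving out the 5 cells with most UMIs of each gene gave 13 higher and 111 lower genes at E16.5. The restricted set gave 13 and 274 at E16.5 and 245 lower at P0, and S and G2/M shares of 17.9% and 39.1% at P0.

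Signs turned for the following genes. At E16.5, with *Krt10* at 0, *Cnfn*, *Krt6a*, *Psca* and *Sprr1a* went to -3.44, -2.71, -3.38 and -3.13, and in the restricted set to -2.84, -1.57, -1.14 and -1.36. *Cnfn* was at -0.52 by the mean over cells and -0.61 in thinned cells, *Krt6a* at -0.18 in thinned cells, and *Ccer2* and *Cd74* at 0.90 and 0.61 with 5 of 6 genes. At P0, with *Krt10* at 0, *Ccer2*, *Hba-a1*, *Hba-a2*, *Hbb-bs* and *Hbb-bt* went to -2.75, -2.75, -2.83, -2.38 and -3.04, and without the 5 cells to -0.13, -0.00, -0.27, -0.03 and -0.10. *Ccer2* was at -1.46 in the restricted set, and *Tbx1* and *Tgfb2* at 0.05 and 0.01 without the condition on *Lhx2*, *Shh* and *Sox10*, which lets follicle cells in. Between stages, *Hbb-bt* went to -0.10, -0.11, -2.52 and -2.0 by the mean over cells, in thinned cells, with *Krt10* at 0 and without the 5 cells.

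Depth limits genes under 50 UMIs, and 1 library a stage leaves variation between animals unmeasured.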
